A study of Mus musculus with 29 samples.

Results

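The regions described here are 3 stretches of the mouse genome that hold clusters of KRAB zinc finger genes: chr2:175000000-177900000, chr4:145000000-147500000 and chr13:65000000-68000000 (build mm9). RRBS (reduced representation bisulfite sequencing), an assay that reports the methylation state of CpGs mostly in CpG-rich fragments, gave the data. Methylated and total reads were summed over 1 kb bins with at least 3 CpGs read in each of the 15 sample groups, and a bin was kept where each group had at least 10 reads. Of 82211 autosomal bins kept in this way, 93 lay in the clusters: 9 on chromosome 2, 53 on chromosome 4 and 31 on chromosome 13. They held 787 CpGs, with a median of 5 per bin (range 3 to 52). The bins on chromosome 2 all fell between positions 177308013 and 177893992, so most of that interval held no bin that met the rule; 388 CpGs there were read in at least 1 library, 84 of them in every group. The background was the other 15809 bins of chromosomes 2, 4 and 13, weighted to the same numbers of CpGs per bin (3 to 4, 5 to 9, 10 to 19, and 20 or more).

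The study asked what prolonged inhibition of Mek1/2, kinases of the Erk pathway, does to mouse embryonic stem cells (ESCs), and it comprised 29 libraries. Male ESCs of 3 lines (J-34, J-35, J-37) were taken at passage 4 into S/L, or into 2i/L, for 6 passages (called p10) or 16 passages (p20), giving 4 groups of 3 libraries, 1 per line. By common use S/L is serum with LIF and 2i/L combines LIF with a Mek inhibitor and a Gsk3 inhibitor; a2i/L and PKCi/L replace the Mek inhibitor or the pair by an Src or a protein kinase C inhibitor, and the labels give these names in abbreviated form. ESCs in a2i/L had 1 library at p10 (J-34) and 2 at p20 (J-34, J-35), and ESCs in PKCi/L 1 at p10 (J-35) and 2 at p20 (J-34, J-35). The Gsk3 inhibitor alone (CHIR) and the Mek inhibitor alone (PD) each had 1 library of J-34 after 6 passages. After 16 passages in 2i/L, cells were returned to S/L for 3 passages (p23, 3 lines) or 10 passages (p30, 2 libraries, titled J-35 and J-37, although other labels of the first name J-34). The Mek1/2 double knockout (DKO) was 1 library of male induced pluripotent stem cells, reprogrammed with Oct4, Klf4, Sox2 and c-Myc from Mek1 fl/fl; Mek2-/- fibroblasts, deleted for Mek1 by Cre and grown in S/L on irradiated fibroblast feeders; its origin and clonal history differ from the ESC lines together with its genotype. Neonatal keratinocytes gave 1 wild-type library (female) and 2 libraries labelled 2i/L keratinocytes (male). Permutation and sign-flip p-values measure the spread between lines, each cultured and sequenced once per condition. The p-values for single bins (limma) use a spread pooled over the groups of a fit. Those for keratinocytes also rest on 2 libraries not labelled with any of these lines.

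KRAB zinc finger proteins are the largest family of transcriptional repressors in mammals. Their zinc fingers bind DNA, often within transposable elements, and their KRAB domain recruits the co-repressor Trim28 (KAP1), with which the histone methyltransferase Setdb1 deposits H3K9me3. The genes arose by repeated duplication and lie in tandem clusters of similar copies. In ESCs the Trim28 pathway is known for silencing endogenous retroviruses and for holding DNA methylation at imprinted loci, which KRAB proteins such as Zfp57 recognise.

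Libraries held between 8359802 and 22433006 reads over CpGs in all, and between 4961 and 15305 of these fell in the 93 cluster bins. The median bin had 72 reads per library, against 57 in the bins elsewhere, and every cluster bin had at least 5 reads in all 29 libraries. Which CpGs were covered at all split the libraries: 20 formed a set, and the other 9 (a2i/L p20, PKCi/L p20, p30 and all keratinocytes) stood apart from it. Comparisons of these groups with S/L p20 therefore cross the sets. In them, a difference of coverage set and a difference of condition cannot be told apart. What separates the sets was not tested. The 13 cluster bins deeper than 5 times the median (14.0%, against 12.1% elsewhere) may hold reads of near-identical copies, and how such reads were treated is not given in the sources used here.

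The label was checked by placing RefSeq promoters on the measured CpGs through the spacing of their CpGs, which does not need a genome of this build. Of the windows placed, 6 belonged to genes with a numbered Zfp symbol: Zfp982 and Zfp933 on chromosome 4, and Zfp459, Zfp874a, Zfp58 and Zfp85 on chromosome 13. Gm36445, Gm32476, Gm46425, Gm33787, 9430065F17Rik and Zfp85os were also placed on chromosome 13 and are not among these 6. Gm32476 and Gm46425 share their measured CpGs, which had 0 reads in S/L. These CpGs had 80.7% in 2i/L keratinocytes (57 reads), 35% at p30 (20 reads) and 13.5% in a2i/L p20 (37 reads). No promoter was placed on chromosome 2, so the bins there are known by position only. On chromosome 4 the promoters of other genes followed one another from Miip onward: Fv1, a restriction factor against murine leukaemia virus derived from a retroviral gag gene; Mfn2, which acts in mitochondrial fusion; Plod1, a lysyl hydroxylase of collagen; Clcn6, an endosomal chloride transporter; and Agtrap, which binds the angiotensin II receptor. These genes flank the cluster rather than belong to the zinc finger family. The rule thus gathered 33 bins from the Miip promoter to the end of the chromosome 4 region. They are called Miip to Agtrap here, although some lie past Agtrap. The other 60 bins (9 on chromosome 2, 20 on chromosome 4 and 31 on chromosome 13) are called the zinc finger stretches. That name rests on the regions of the rule and not on a gene placed at each bin. One of them, chr4:147236575-147236649, lies between the placed Zfp933 and Miip promoters. On chromosome 13 the placed Zfp promoters all lay between 67522355 and 67856389. Both sets are given separately where they differ.

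The 6 placed Zfp promoters carried little or no methylation, also in the conditions with the highest methylation elsewhere. These 4 are shown because they share a short run of letters and, for 3 of them, CpGs that stayed near 0. Each is the 250 bases before the transcription start from RefSeq (GRCm38.p6), on the gene's own strand (minus for all 4), with the CpGs measured here in capitals; for Zfp58, Zfp85 and Zfp933 a further measured CpG lay beyond the start and is not printed.
Zfp58: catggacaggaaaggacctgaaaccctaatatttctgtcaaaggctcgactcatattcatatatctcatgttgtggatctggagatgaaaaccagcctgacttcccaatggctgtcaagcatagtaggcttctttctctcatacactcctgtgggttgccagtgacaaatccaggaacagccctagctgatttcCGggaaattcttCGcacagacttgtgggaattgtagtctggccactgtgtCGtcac
Zfp85: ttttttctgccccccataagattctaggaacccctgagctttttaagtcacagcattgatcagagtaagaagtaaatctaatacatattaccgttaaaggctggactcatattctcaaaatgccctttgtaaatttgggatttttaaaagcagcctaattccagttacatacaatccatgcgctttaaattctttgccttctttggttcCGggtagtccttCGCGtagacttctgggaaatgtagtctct
Zfp874a: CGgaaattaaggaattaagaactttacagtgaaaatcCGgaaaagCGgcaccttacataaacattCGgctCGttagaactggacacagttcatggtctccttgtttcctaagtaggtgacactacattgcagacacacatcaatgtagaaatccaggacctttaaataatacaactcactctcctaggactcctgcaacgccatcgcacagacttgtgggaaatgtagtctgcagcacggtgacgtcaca
Zfp933: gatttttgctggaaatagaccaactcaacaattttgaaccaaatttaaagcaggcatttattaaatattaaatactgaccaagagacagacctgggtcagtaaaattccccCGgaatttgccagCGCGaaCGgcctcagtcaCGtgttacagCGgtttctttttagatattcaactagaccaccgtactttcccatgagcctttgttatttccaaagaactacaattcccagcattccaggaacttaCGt

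In mm9, the measured CpGs of Zfp58 span chr13:67601445-67601513, those of Zfp85 chr13:67856117-67856179, those of Zfp874a chr13:67552739-67552809 and those of Zfp933 chr4:147222521-147222665. At Zfp58, 0 of 202 reads in S/L p10 were methylated, which allows a share of up to 1.49% (3 reads of the total; counting error only), and 0 of 206 in 2i/L p20, which allows up to 1.46%. Over the groups with at least 10 reads, Zfp58 ranged from 0 to 1.10% and Zfp85 from 0 to 1.45%. The range was 0 to 2.27% at Zfp933 and 0 to 4.76% at Zfp459. Zfp982 reached 13.3% in 2i/L keratinocytes, from 30 reads, with 5.56% and 25% in the 2 libraries. Zfp874a reached 17.2% at p30, with 30% and 10.5% in the 2 libraries. The Zfp874a promoter had 4.69% ± 3.74 in S/L p20, against 1.19% ± 1.80 in 2i/L p20, with overlapping lines. At p10 it had 8.57% in S/L, from 20% in J-34 and 4.76% in J-35, and 3.33% in 2i/L, from 0% and 5.88%. Each of these small values rests on few reads and moves with 1 library. In keratinocytes 0 reads were methylated at low depth (16 wild-type reads and 32 reads of 2i/L keratinocytes, which allow up to 18.8% and 9.38%). The numbered Zfp promoters other than Zfp982 and Zfp874a thus had at most 4.76% in groups with at least 10 reads, with wide limits where reads were few. In wild-type keratinocytes, 0 of 10 reads at Zfp459 allow up to 30%. There, 0 of 29 at Zfp58 allow up to 10.3% and 0 of 38 at Zfp85 up to 7.9%. In PD, 0 of 15 reads at Zfp459 allow up to 20%.

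The motif GAANTGTAG, on either strand and where N is any base, occurs in the sequences of Zfp58, Zfp85, Zfp874a and Zfp933, and not in those of Zfp459 and Zfp982. It was chosen after reading these sequences. Over RefSeq promoter windows of 300 bases it was present in 51 of 331 genes with a Zfp symbol (15.4%), in 472 of 26694 other genes (1.77%) and in 1.94% of all genes. The match describes the letters and is not evidence of a bound factor.

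Across all 93 bins, the clusters were less methylated than the background in S/L. In S/L p10 the bins averaged 34.9% ± 0.340 (SD, n = 3), against 49.7% ± 0.320 in bins of equal CpG number elsewhere, a gap of -14.8 percentage points. In S/L p20 the levels were 31.8% ± 0.483 and 44.2% ± 0.543, a gap of -12.4 points. No line overlapped between clusters and background. In S/L p10 the gap was present in bins of up to 19 CpGs. Levels were 52.5% against 69.1% in bins of 3 to 4 CpGs, 34% against 54.5% in bins of 5 to 9, and 8.20% against 14.9% in bins of 10 to 19. In the 9 bins of 20 or more both levels were near the floor and little apart, at 1.17% against 1.40% in S/L p10 and 1.08% against 1.15% in S/L p20. The gap was larger over the zinc finger stretches together, at 29% against 48.7% for equal bins elsewhere, while the Miip to Agtrap bins had 45.6% against 51.5%. Of the 60 zinc finger bins, 31 lay on chromosome 13, with a mean of 14.2%. The 9 on chromosome 2 had 45.3%, so the low mean was not common to all zinc finger stretches. All bins of chromosome 4 together had 45.2%, close to the 45.6% of its Miip to Agtrap bins. The lower level of the zinc finger stretches than of the Miip to Agtrap bins thus went with chromosome 13. These chromosome means were not weighted to CpG number.

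**Figure D1:**
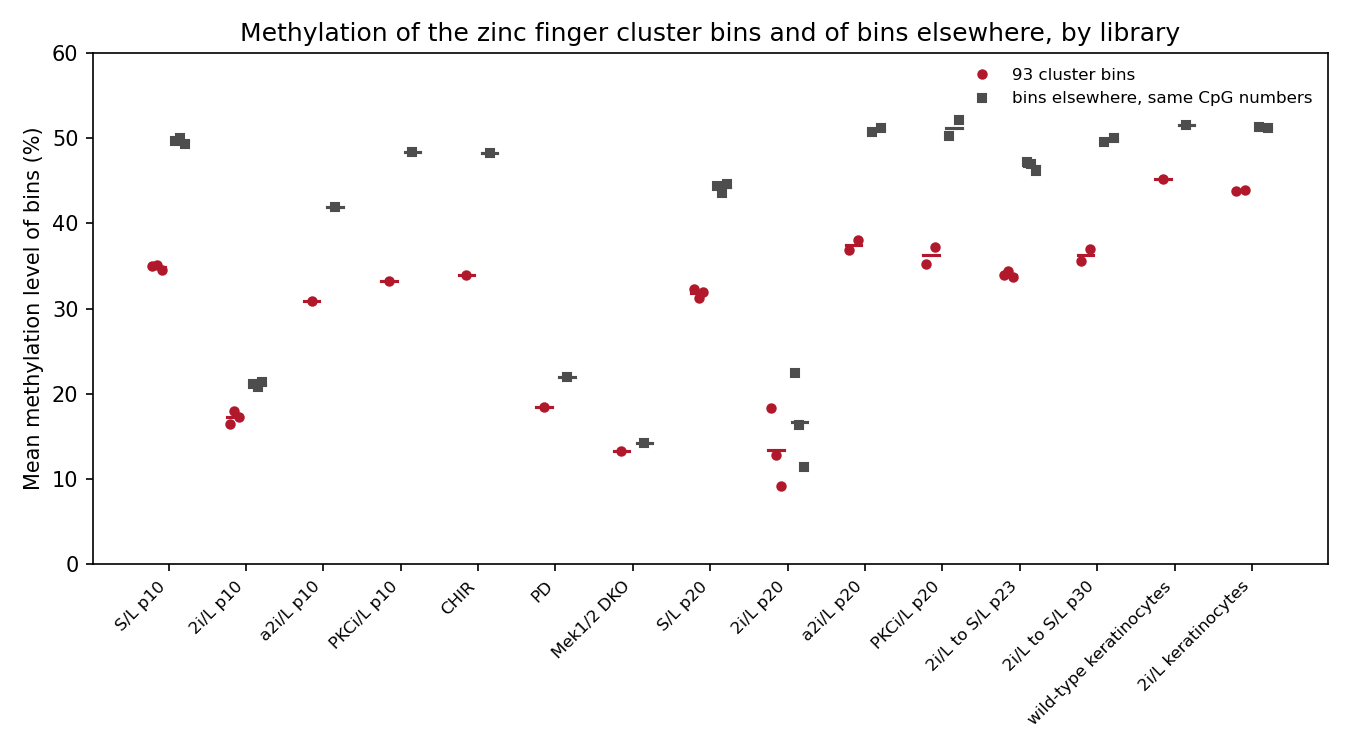
Mean methylation of the 93 cluster bins and of equal-CpG bins elsewhere on chromosomes 2, 4 and 13 (y axis, percent) in each of the 15 groups (x axis); points are libraries. Clusters lie well below the background in S/L (34.9% and 49.7% at p10) and close to it in the Mek1/2 DKO library (13.3% and 14.2%).

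Bins fell into low and high classes. In S/L p10, 43 of the 93 bins (46.2%) were under 10% methylated, against 30.9% elsewhere, and 34 (36.6%) were at 50% or more, against 56.0%. Chromosome 13 differed from the others, with a mean of 14.2% in S/L p10 against 45.3% on chromosome 2 and 45.2% on chromosome 4. These means were not weighted to CpG number. The median bin had 6 CpGs on chromosome 13, 4 on chromosome 2 and 5 on chromosome 4. In 36 bins the level stayed under 10% in every ESC group and in the Mek1/2 DKO. In 30 of these it did so in all 15 groups: 16 on chromosome 13, 12 on chromosome 4 and 2 on chromosome 2. The bin chr13:67161664-67161880 is an example: it read 10.0%, 0% and 0% in S/L p10 and 0%, 0% and 2.63% in S/L p20, and 0% in every other library, with as few as 8 reads in one of them.

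**Figure D2:**
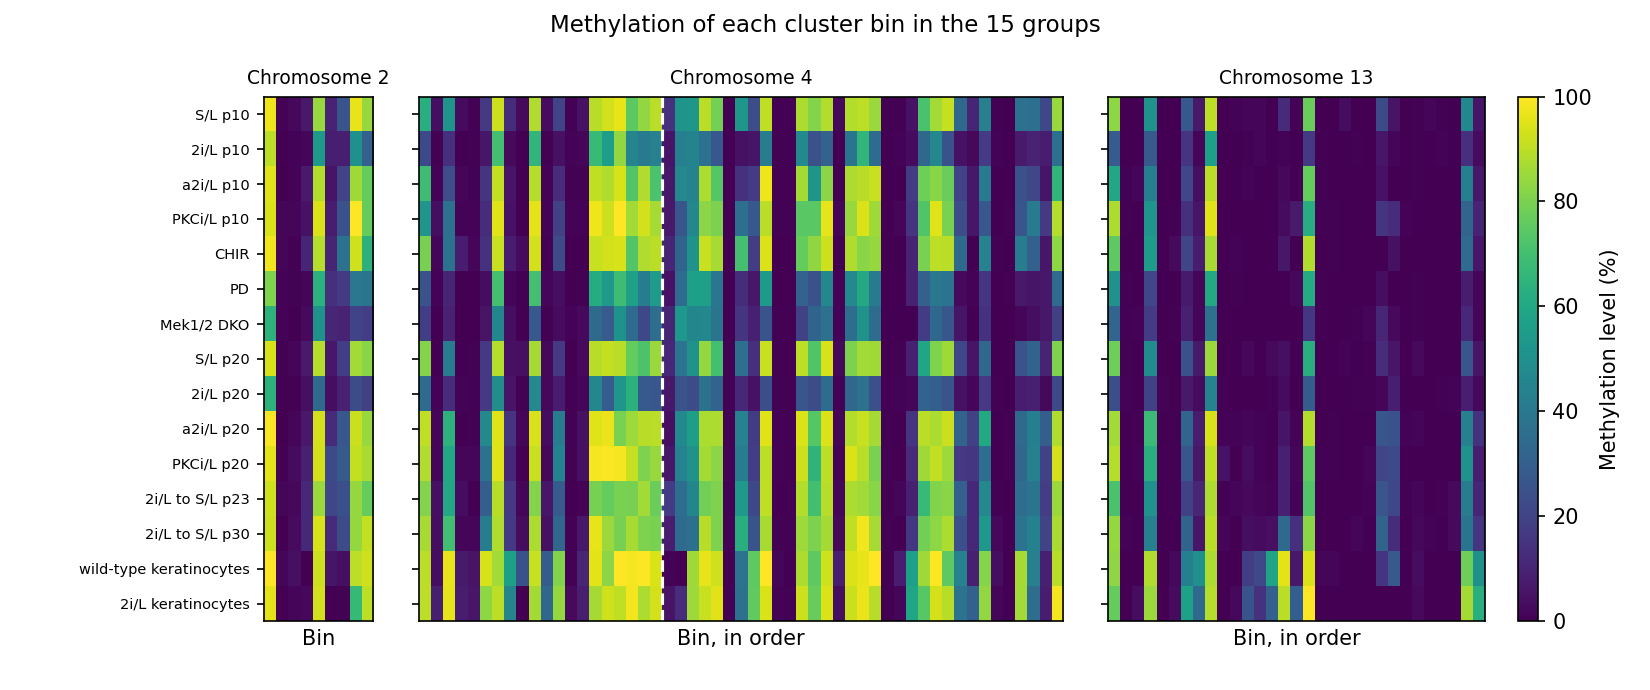
Methylation (colour, percent) of each of the 93 cluster bins (columns, in order along chromosomes 2, 4 and 13) in the 15 groups (rows). In 30 bins the colour stays at the low end in all rows, and the methylated bins are lower in 2i/L, PD and the Mek1/2 DKO than in S/L and p23.

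Methylation of the clusters was lower in 2i/L than in S/L. The mean level was 17.2% ± 0.745 in 2i/L p10, a difference of -17.6 points from S/L p10, and in 2i/L p20 it was 13.4% ± 4.58, which is -18.4 points from S/L p20. All 3 lines lay below all S/L lines at both passages, and the exact two-sided permutation test gave p = 0.1 each time, the smallest that 3 against 3 allows. The lines spread at p20: J-34 had 18.3%, J-35 12.8% and J-37 9.18%, and the background followed the same order with 22.4%, 16.4% and 11.4%. The gap to the background narrowed from -14.8 points to -3.86 ± 0.956 at p10, and from -12.4 to -3.30 ± 0.993 at p20 (exact permutation p = 0.1 for both). Because both levels were lower, a smaller gap in points does not by itself mean that clusters kept a larger share, which is given below.

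Single bins were tested with limma across 81553 autosomal bins, and a bin counted as called where the Benjamini-Hochberg adjusted p was under 0.05 and the groups differed by 20 points or more. In 2i/L p10, 35 of the 93 bins (37.6%) were called lower than in S/L p10, against 60.2% of all bins called lower. In 2i/L p20, 33 (35.5%) were called lower than in S/L p20, against 56.5% of all bins. The median difference at p20 was -4.81 points in the clusters, against -31.7 elsewhere on these chromosomes. By starting level, of bins at 50% or more in S/L p10, 32 of 34 (94.1%) were called lower in 2i/L p20, against 97.8% of 8761 such bins elsewhere. The same 30 bins were called lower at both passages. A test of whether the 2i/L effect differed between p20 and p10 called 0 of 93 bins with limma (0.00368% of all bins), with 12 (12.9%) at an unadjusted p under 0.05, against 9.66% of all bins.

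Of the 34 methylated bins, 4 lay on chromosome 2, 26 on chromosome 4 and 4 on chromosome 13. The 2 bins of each cluster with the largest falls in 2i/L p20 are described; since they were taken per cluster, chromosome 4 holds other bins with larger falls than those of chromosome 13, such as chr4:146846246-146846445 in the zinc finger stretch (90.9% to 29% on average). The bin chr4:147305295-147305365, in the Miip to Agtrap stretch, had 91.1%, 85.7% and 97.8% in S/L p20 (J-34, then J-35, then J-37) and 29.5%, 33.3% and 9.30% in 2i/L p20. The groups were well apart, with a difference of -67.5 points (limma adjusted p = 2.99e-07). On chromosome 2, chr2:177893928-177893992 had 84.0%, 81.1% and 81.4% in S/L p20 but 33.3%, 19% and 5.13% in 2i/L p20 (-63.0 points, limma adjusted p = 5.09e-07). The J-37 line was lowest there. It lay below J-34 in 33 of the 34 methylated bins, while the full order of J-34 over J-35 over J-37 held in 25. In chr13:65154053-65154151, S/L p20 gave 70.4%, 83.7% and 79.3%, and 2i/L p20 gave 35.9%, 20.9% and 15% (-53.9 points, limma adjusted p = 2.80e-06). The second bins of chromosomes 2 and 4 were chr2:177880654-177880948, from 86.1% to 23.4% on average, and chr4:147337888-147337991, from 90.2% to 26.9%.

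A few methylated bins stayed high in 2i/L, and those at 40% or more in 2i/L p20 all lay in the zinc finger stretches (7 of 18, against 0 of 16 Miip to Agtrap bins and 14.7% of methylated bins elsewhere). At p10 this was not so: 12 of 18 zinc finger bins and 6 of 16 Miip to Agtrap bins (37.5%) were at 40% or more, against 38.2% elsewhere. Both highest means were close to each other. One was chr2:177308013-177308059, with 97.2%, 95.7% and 88.4% in S/L p20 but 71.4%, 64.3% and 57.1% in 2i/L p20 (-29.5 points, limma adjusted p = 0.000529). It was at 80.8% in PD and 64.6% in the Mek1/2 DKO. The other, chr4:147026109-147026132, had 76.7%, 80.0% and 72.3% in S/L p20 against 78.2%, 62.9% and 51.7% in 2i/L p20; its lines overlapped and it was not called (limma adjusted p = 0.136). At p10 the same bin had 72.5%, 76.7% and 75.3% in S/L and 48.9%, 40% and 48.0% in 2i/L. The bin chr4:146864655-146864681 had 90.0%, 100% and 79.2% in S/L p20 but 65.9%, 42.9% and 47.9% in 2i/L p20 (-37.5 points, limma adjusted p = 0.00219), with as few as 7 reads in a library. In chr13:65363484-65363683, S/L p20 gave 84.9%, 85.0% and 84.9%, and 2i/L p20 gave 57.9%, 52.9% and 23.1% (-40.3 points, limma adjusted p = 1.27e-05), so that J-37 was well below the others. The means of chr2:177859777-177859919 were 88.7% in S/L p20 but 34.6% in 2i/L p20, and those of chr13:67030812-67030987 were 62.9% and 29.4%.

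As a share of the same line's S/L level, the methylated zinc finger bins kept 58.2% ± 0.809 of their methylation in 2i/L p10, against 43.5% ± 0.863 in methylated bins elsewhere. At p20 the shares were 62.0%, 44.9% and 29.4% for J-34, J-35 and J-37, against 50.4%, 37% and 24.8% elsewhere, a difference of 8.02 ± 3.51 points in the same direction in 3 of 3 lines. An exact sign-flip test over the 3 pairs gave p = 0.25, the smallest it can give. The Miip to Agtrap bins kept 37.5% ± 14.8 at p20, against 37.4% elsewhere, higher in 1 of 3 lines (exact sign-flip p = 1). Set against each other, the zinc finger bins kept 7.95 ± 2.53 points more than the Miip to Agtrap bins at p20 and 12.1 ± 4.09 at p10, in 3 of 3 lines each time (exact sign-flip p = 0.25). S/L p10 levels also chose these bins, and the split of chromosome 4 was made after values had been seen.

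**Figure D3:**
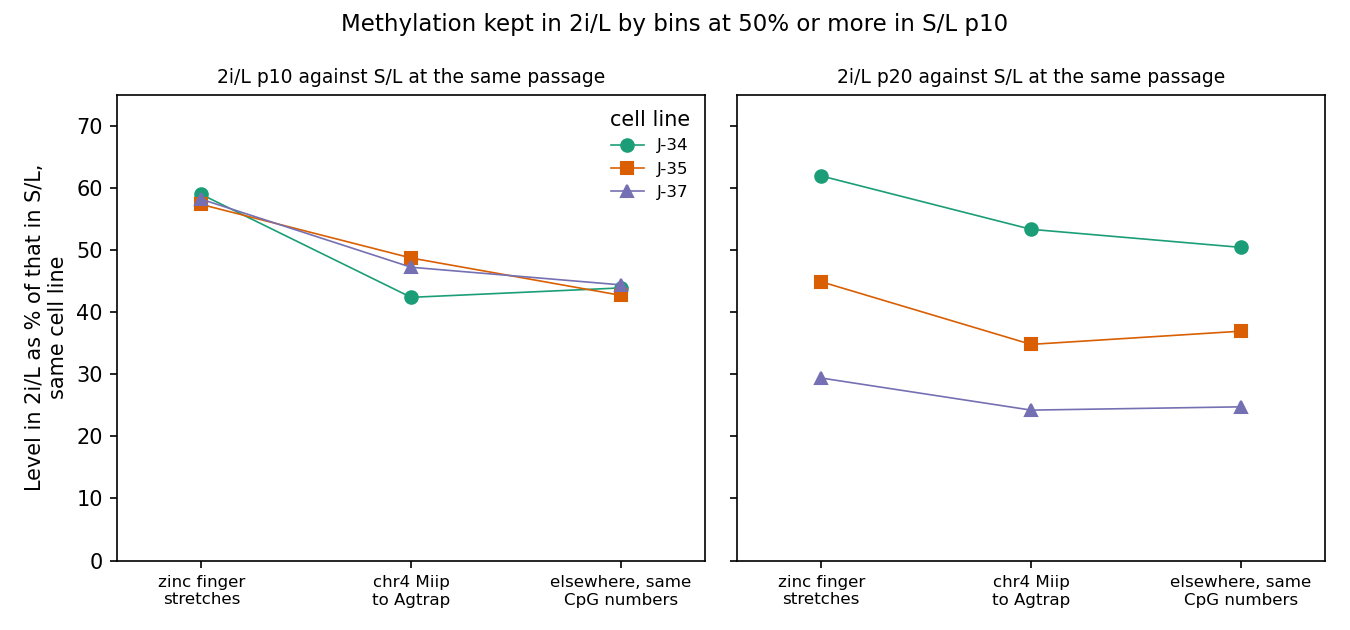
Share of the S/L methylation level kept (y axis, percent) by methylated bins in the zinc finger stretches, the Miip to Agtrap stretch and elsewhere, for each line (colour), in 2i/L p10 (left) and 2i/L p20 (right). In 2i/L p20 the zinc finger bins lie above the background in each line (62.0% and 50.4% in J-34, 29.4% and 24.8% in J-37), and the spread between lines exceeds that difference.

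The inhibitors applied singly to J-34 differed, each in 1 library with no replicate check. With PD the cluster mean was 18.5%, near the 16.5% of the same line in 2i/L p10, and with CHIR it was 33.9%, near its 35% in S/L p10. The methylated zinc finger bins kept 63.1% of the line's S/L level in PD, against 45.6% elsewhere, and 100.1% in CHIR, against 98.2%. Pooled over cluster reads, 9.19% were methylated in PD (Wilson 95% interval 8.74 to 9.65) and 16.6% in CHIR (15.8 to 17.3). The Mek1/2 DKO library had the lowest single value of the unreplicated groups, a mean of 13.3% against 14.2% in the background. Its methylated bins were at 32.3% against 23.9% elsewhere; both stretches lay above their background, the zinc finger bins at 38.0% of the S/L p10 level against 29.1%, and the Miip to Agtrap bins at 42.1% against 29.5%. In the DKO the order of the stretches was therefore the reverse of that in 2i/L. At p10, a2i/L (30.9%) and PKCi/L (33.3%) were closer to S/L (34.9%) than to 2i/L (17.2%).

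After 3 passages back in S/L, cluster methylation was near its S/L level. The p23 mean was 34% ± 0.352, above 2i/L p20 by 20.6 points and above S/L p20 by 2.17 points (exact permutation p = 0.1 for both, with no overlap of lines). With limma, 39 of the 93 bins (41.9%) were called higher at p23 than in 2i/L p20, against 61.8% of all bins, and these included all 33 bins called lower in 2i/L p20. Against S/L p20, limma called 0 of 93 bins at p23 (1.36% of all bins), with 11 (11.8%) at p under 0.05 before adjustment, against 16.3% of all bins; the quasi-binomial model called 0, against 4.27% of all bins. The methylated zinc finger bins were at 98.9% ± 2.27 of the same line's S/L p20 level at p23 and those elsewhere at 102.4% ± 2.44, a difference of -3.49 ± 1.63 points, with 0 of 3 lines above the background (exact sign-flip p = 0.25, the smallest it can give). The bin chr4:147305295-147305365, which had fallen most, was back at 98.1%, 87.1% and 85.7%, and chr2:177308013-177308059 was at 87.5%, 94.7% and 95.8%. The gap to the background at p23 was -12.8 ± 0.508 points, close to the -12.4 of S/L p20 (exact permutation p = 0.4). Summed over reads within CpG classes in place of bin means, that comparison of gaps changed sign (+2.19 points, exact permutation p = 0.1).

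At p30 the cluster mean was 36.3% ± 0.932 (n = 2), and limma called 2 of the 93 bins, both higher than S/L p20, against 4.65% of all bins. In chr13:66816236-66816773, S/L p20 had 7.63%, 1.83% and 2.73%, and the p30 libraries had 30.6% and 37.7% (+30.1 points, limma adjusted p = 0.00171). The p30 values lay above all other ESC libraries: p23 had 2.61%, 13.7% and 9.68%, a2i/L p20 7.50% and 3.94%, and PKCi/L p20 4.11% and 13.4%. This call was kept in 13 of 13 alternatives, including each library left out. Against p30, a2i/L p20 differed by -28.4 points (limma adjusted p = 0.0488), with 1 of its 2 libraries outside the coverage set of p30. PKCi/L p20, wholly inside that set, differed from p30 by -25.4 points and was not called (limma adjusted p = 0.148). The second bin, chr4:145722082-145722721, had 11.7%, 20.9% and 17.2% in S/L p20 and 28.6% and 55.6% at p30 (+25.5 points, limma adjusted p = 0.0427). It was no longer called without any single S/L p20 library or without the p30 library of J-37 (count of calls 1), nor with the cell line as a block (1 call).

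In a2i/L and PKCi/L at p20 the clusters were above S/L p20, at 37.5% ± 0.840 and 36.2% ± 1.40 (n = 2 each) against 31.8%. For a2i/L, limma called 5 bins, all higher than S/L p20 (7.8% of all bins called), and for PKCi/L 2 bins, both higher (6.56% of all bins). Neither count exceeded the share over all bins. The bin chr4:147417323-147417701, in the Miip to Agtrap stretch, had 56.9%, 60% and 61.0% in S/L p20, 83.7% and 95.2% in a2i/L, and 84.0% and 87.2% in PKCi/L (+30.2 and +26.3 points, limma adjusted p = 0.00764 and 0.0331). The bin chr4:146725885-146725896 had 12.4%, 16.4% and 21.3% in S/L p20, 49.0% and 35.8% in a2i/L, and 39.4% and 50.6% in PKCi/L (+25.8 and +28.3 points, limma adjusted p = 0.0323 and 0.0248). At chr4:145722082-145722721, a2i/L had 49.2% and 45.3% (+30.6 points, limma adjusted p = 0.0109). These calls depended on single libraries: the a2i/L count was 0 without its J-35 library, 2 without its J-34 library, 2 without S/L p20 J-34 or J-35, and 3 without S/L p20 J-37. The PKCi/L count was 0 without either PKCi/L library or without S/L p20 J-34 or J-35, and 1 without S/L p20 J-37. Both media share their S/L p20 controls with p30, and the comparisons cross the coverage sets. Against p30, which shares a coverage set with most of these libraries, limma called 1 cluster bin lower in a2i/L (0.611% of all bins), the chromosome 13 bin above. In PKCi/L limma called 0 (0.147% of all bins), with 10 (10.8%) at p under 0.05 before adjustment, against 12.5% of all bins, and the quasi-binomial model called 0, against 0.487%.

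Over all 93 bins, keratinocytes were more methylated than ESCs in S/L, at 45.2% in the wild-type library and 43.9% ± 0.139 in the 2i/L keratinocytes (n = 2), and nearer to the background (51.6% and 51.2%). Chromosome 13 had 26.7% in wild-type keratinocytes, against 12.1% in S/L p20, and chromosome 4 had 56.4% against 41.6%. Chromosome 2 did not share this: its 9 bins had 43.4% in wild-type and 38.9% in 2i/L keratinocytes, against 42.7% ± 1.30 and 45.3% in S/L at p20 and p10. In the wild-type library, 13 of 93 bins (14.0%) were at least 40 points above S/L p20, against 9.79% elsewhere, and 0 of 93 at least 40 points below, against 3.75%. Among bins under 20% in S/L p20, 9 of 53 (17.0%) were at least 40 points higher in the wild-type library; elsewhere the share was 15% once weighted to the same CpG numbers, so the clusters lay near the background. The keratinocyte groups were alike in most bins, with 75 of 93 within 10 points of each other. In a fit of 23 libraries, limma called 23 bins higher and 1 lower in 2i/L keratinocytes than in S/L p20, against 27.3% of all bins called in either direction.

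The bins that were low in S/L p20 and high in keratinocytes include 3 described above: chr13:66816236-66816773 was called higher at p30 alone among p30, a2i/L p20 and PKCi/L p20, and the other two in a2i/L p20 and in p30 or PKCi/L p20. The bin chr13:66816236-66816773 had 96.0% in the wild-type library and 84.7% and 94.5% in the 2i/L keratinocytes (+85.6 points from S/L p20, limma adjusted p = 2.66e-10). At chr4:145722082-145722721 the values were 94.1%, and 84.2% and 81.8% (+66.4 points, limma adjusted p = 1.17e-07). At chr4:146725885-146725896 they were 81.0%, and 84.8% and 83.3%. In the other direction, the Fv1 bin chr4:147243147-147243608 had 41.8%, 34.8% and 37.9% in S/L p20, 0% in wild-type keratinocytes and 15.6% and 9.52% in 2i/L keratinocytes (-25.6 points, limma adjusted p = 0.00777). It was not called in 2i/L p20, where it had 23.8%, 21.4% and 32.6% (limma adjusted p = 0.170). The promoter CpGs of Fv1, most of which also lie in the promoter of a Miip start, had 16.8% ± 1.56 in S/L p10. In 2i/L p10 they had 8.62% ± 2.14, without overlap of lines. At p20 they had 11.8% ± 0.587 in S/L and 9.46% ± 6.72 in 2i/L, where J-35 was above its S/L value (16.2% and 12.1%), with 0 of 34 reads methylated in wild-type keratinocytes, which allows up to 8.82%. On chromosome 2, chr2:177877016-177877773 had 15.8%, 18.2% and 20.2% in S/L p20 and 4.08% in wild-type keratinocytes, with 0% and 1.15% in the 2i/L keratinocytes.

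**Figure D4:**
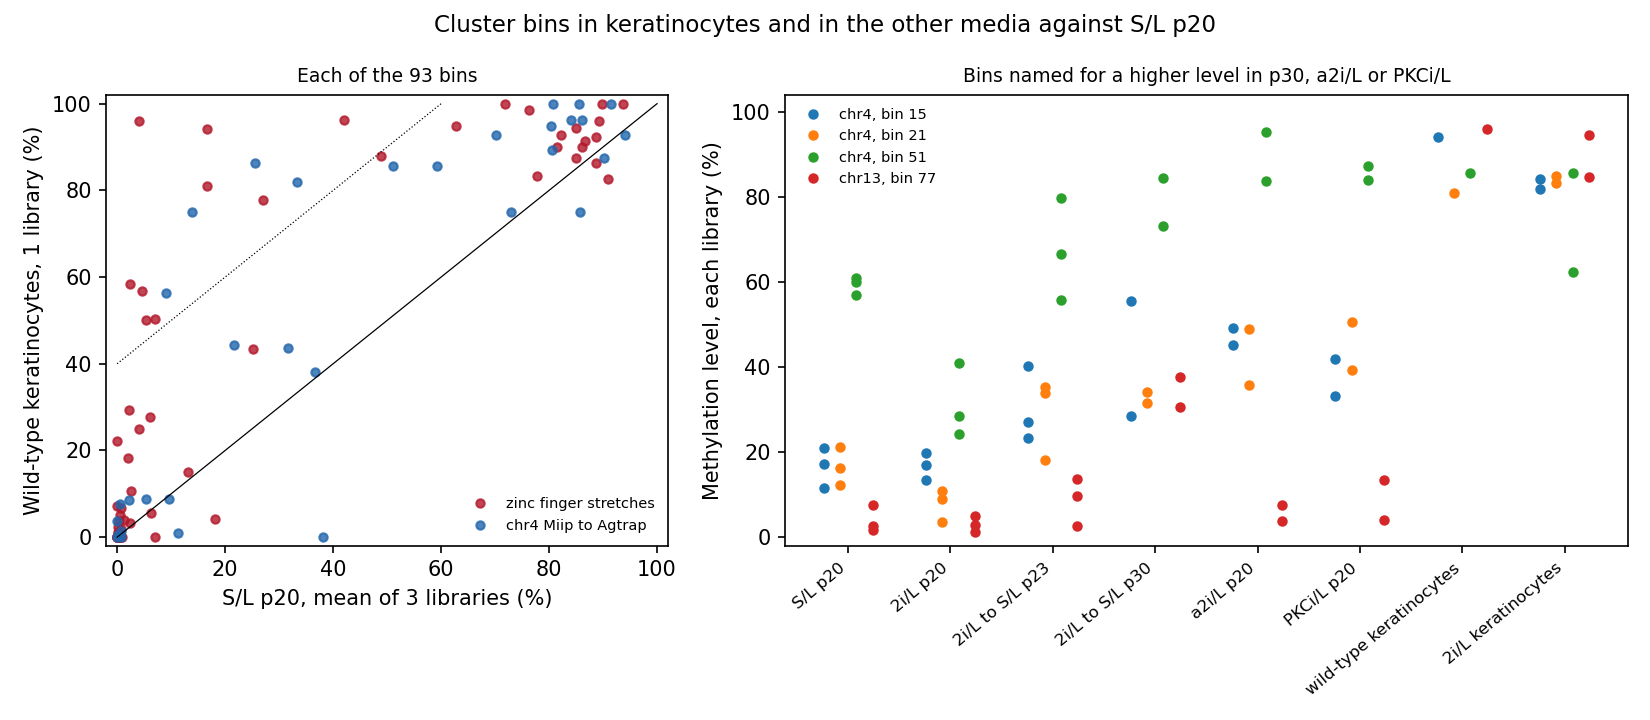
Left, the level of each of the 93 bins in wild-type keratinocytes (y axis, percent) against its S/L p20 mean (x axis, percent), with lines at equality and at 40 points above it. Right, levels (y axis, percent) of 4 bins called higher in p30, a2i/L p20 or PKCi/L p20 than in S/L p20, by group (x axis), each point a library: bins 15, 21 and 51 start at 145722082, 146725885 and 147417323 on chromosome 4, and bin 77 at 66816236 on chromosome 13. The chromosome 13 bin is at 30.6% and 37.7% at p30, above the other ESC libraries shown, and reaches 96.0% in wild-type keratinocytes.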

How the data were processed

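The authors deposited, per RRBS library, a table of CpG positions with methylated over total reads and a score; on checking, the deposited score equals the methylated share per 1000, rounded down, and the read counts were used. Alignment used BSMAP 2.89 and build mm9, per the submitters' processing notes; libraries came from an RRBS kit, per the labels' protocols. How multiply mapped reads were treated is not given in the sources used here.

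Reads were summed per 1 kb bin over CpGs read in every group. A group level is the mean over libraries of the mean bin share. Level differences were tested by exact two-sided permutation. Bins were tested with limma 3.58.1 (R 4.3.3) on log2((methylated + 1)/(unmethylated + 1)), 21 libraries of 8 ESC groups in one fit (13 residual degrees of freedom), over 81553 autosomal bins with at least 5 reads in each of these libraries; a call needed a Benjamini-Hochberg adjusted p under 0.05 and 20 points. A quasi-binomial model was the alternative. The fit with 2i/L keratinocytes had 23 libraries and 81110 bins. In data simulated for 2i/L p20 against S/L p20 (81553 bins), 50, 100 and 50 bins were changed by 20, 30 and 40 points. Limma recovered 0%, 21% and 54% of them, with 0 false calls, and the quasi-binomial model 10%, 53% and 82%. In the data 56.5% of all bins were called lower. With so few changed bins the adjusted p is harder to reach, so these shares do not give the recovery in the data. A true change of 20 points must also measure 20 points or more to be called. Intervals are Wilson 95% and, like the limits for counts of 0, cover counting error only.

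Same-numbered libraries are the same cell line. Their deviations from group means correlated at -0.0251 to 0.0166 for 2i/L p20 with S/L p20, -0.00210 to 0.00206 at p10, and 0.118, 0.00802 and 0.147 for p23 with 2i/L p20.

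The regions, lists and thresholds were chosen with earlier results of these data known. Named bins are, per cluster, the 2 highest in 2i/L p20, the 2 largest falls there, and the largest difference in each direction in wild-type keratinocytes, and the 3 largest calls in p23, p30, a2i/L p20 and PKCi/L p20 against S/L p20. Promoter placement needed at least 4 matched CpGs and 30% of a window's CpGs; 6427 promoters were tried, 20 windows of 18 genes were placed, and all 16 neighbouring pairs followed the gene table's order. These criteria, the motif, the chromosome 4 split, the interaction, the comparisons with p30, the keratinocyte fit and the unadjusted threshold were chosen after seeing the data.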

Additional observations from a re-analysis of the deposited data

How the results depend on the processing

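Of 112 recomputed gaps and levels, 111 kept their direction; the gap at p23 against S/L p20 became +2.19 with pooled reads. Of 119 recomputed counts of called bins, 78 stayed within 1.5 times. With the adjusted p alone, counts were 52 (2i/L p20, 67.1% of all bins), 3 (p23 against S/L p20, 2.02%), 6 (p30, 6.44%), 8 (a2i/L, 11.8%), 9 (PKCi/L, 9.93%), 3 (a2i/L against p30, 0.953%) and 1 (PKCi/L against p30, 0.205%). With an unadjusted p under 0.05 alone, chosen after seeing the data, they were 54 (2i/L p10, 72.9% of all bins), 52 (2i/L p20, 68.6%), 59 (p23 against 2i/L p20, 74.6%), 11 (p23 against S/L p20, 16.3%), 20 (p30, 21%), 19 (a2i/L, 27.1%), 18 (PKCi/L, 26.1%), and 10 for both comparisons with p30 (a2i/L 14.3%, PKCi/L 12.5%). Without the Miip to Agtrap bins, by construction fewer, they were 17, 17 and 20 for 2i/L p10, 2i/L p20 and p23 against 2i/L p20, 3 for a2i/L and 1 for PKCi/L. The quasi-binomial model called 4 for p30 (6.68% of all bins) and 4 for PKCi/L (8.61%). With 0.5 added to the reads, p30 had 1 and a2i/L 3; with CpGs read in all 29 libraries, p30 had 1. With the cell line as a replicate block a2i/L had 4. That fit left out the p30 library titled J-35, so p30 had 1 library in it. Apart from p30, no other count changed. Leaving out a library gave 34 to 36 calls (2i/L p10), 33 to 35 (2i/L p20), 37 to 40 (p23 against 2i/L p20), 0 (p23 against S/L p20), 1 to 2 (p30), 0 to 3 (a2i/L) and 0 to 1 (PKCi/L); an arm left with 1 library takes its spread from the other groups. The cause of these shifts was not tested. At chr4:145722082-145722721, which was not called in 2i/L p20, the difference from S/L p20 (+0.199) ranged from -2.27 to 2.37 with a library left out, below 0 without S/L p20 J-34 (-2.27) or 2i/L p20 J-37 (-1.29).

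Depth limits the single bins most: some had 7 or 8 reads in a library, and of the 93 bins 45 had at least 30 reads in each group. Groups with 1 library have no replicate check.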
